A study of Mus musculus with 32 samples.

Results

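The 8 genes described are chemokines that muscle precursor cells can make: Cxcl12, Cxcl1, Cxcl5, Cxcl10, Ccl2, Ccl7, Ccl5 and Cx3cl1. They were taken as every probe set annotated to one of these gene names, current or former, which gave 12 probe sets for 8 of the 8251 genes with a name on the array. The cells were mouse C2C12, a line of skeletal myoblasts that fuses into myotubes once the serum of growth medium is withdrawn. In the first arm, C2C12 cells given trichostatin A (TSA), which inhibits zinc-dependent histone deacetylases, and control cells without it were taken from growth medium (0 h) and from differentiation medium at 4, 12, 24 and 48 h. Each of these 10 groups has 2 arrays. In the second arm, cells with Sir2 in the pHan vector and cells with the pHan vector alone were taken from differentiation medium at 12 and 36 h, and each of these 4 groups has 3 arrays. Sir2 is an NAD-dependent deacetylase that TSA does not inhibit, and its mouse counterpart is Sirt1. All groups are 1 cell line, so no cells of the blood, of vessels or of connective tissue were part of the design. The dose and timing of TSA, the promoter that drives Sir2, and whether the cells with each construct were 1 clone or a pool are not stated in the sources used here. Nothing in the labels says that replicate arrays came from separate cultures. A p-value here therefore covers the spread of these arrays alone, which may be technical.

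Chemokines are small secreted proteins that bind G protein-coupled receptors and steer migrating cells. Cxcl12 signals through Cxcr4, which muscle precursors themselves carry, and is also taken up by the scavenger receptor Ackr3. Cxcl1 and Cxcl5 bind Cxcr2 and draw neutrophils, Ccl2 and Ccl7 bind Ccr2 and draw monocytes, Ccl5 draws T cells and monocytes, and Cxcl10 is an interferon-induced ligand of Cxcr3. Cx3cl1, also called fractalkine, differs from the rest in being anchored in the membrane by a mucin stalk, from which the proteases Adam10 and Adam17 release it. In injured muscle, Ccl2 and its relatives are known for the recruitment of macrophages that help the precursor cells to regenerate fibres. Genes for several of these ligands are standard targets of NF-kB, a transcription factor of inflammation.

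Positions are those of RefSeq on the mouse genome GRCm38.p6. Cxcl5 (chr5:90759298-90761625), Cxcl1 (chr5:90891245-90893121) and Cxcl10 (chr5:92346638-92348889) lie on chromosome 5. Ccl2 (chr11:82035577-82037452), Ccl7 (chr11:82045712-82047525) and Ccl5 (chr11:83525778-83530518) lie on chromosome 11. Cxcl12 (chr6:117168535-117181368) and Cx3cl1 (chr8:94772180-94782427) lie on chromosomes 6 and 8. RefSeq promoter sequence was at hand for 4 of the 8 genes, and 3 of these are printed because differences of Cxcl12, Cx3cl1 and Cxcl1 passed the test in the comparisons that follow. Each is the 250 bases before the annotated start of the gene, on the plus strand, and capitals mark the motifs that were searched on both strands: the NF-kB consensus, the GC box (GGGCGG), the TATA box (TATAAA) and the E-box (CANNTG).
Cxcl12 (chr6:117168285-117168534): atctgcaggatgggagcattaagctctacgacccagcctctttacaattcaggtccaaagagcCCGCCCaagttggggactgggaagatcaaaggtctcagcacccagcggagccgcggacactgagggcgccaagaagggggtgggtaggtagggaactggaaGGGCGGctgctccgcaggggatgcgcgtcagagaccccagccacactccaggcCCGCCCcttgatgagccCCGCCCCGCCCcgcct
Cx3cl1 (chr8:94771930-94772179): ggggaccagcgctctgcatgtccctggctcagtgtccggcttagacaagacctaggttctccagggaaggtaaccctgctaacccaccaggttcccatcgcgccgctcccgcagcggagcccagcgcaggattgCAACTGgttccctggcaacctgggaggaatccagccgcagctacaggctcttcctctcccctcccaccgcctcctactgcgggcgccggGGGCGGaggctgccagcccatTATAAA
Cxcl1 (chr5:90890995-90891244): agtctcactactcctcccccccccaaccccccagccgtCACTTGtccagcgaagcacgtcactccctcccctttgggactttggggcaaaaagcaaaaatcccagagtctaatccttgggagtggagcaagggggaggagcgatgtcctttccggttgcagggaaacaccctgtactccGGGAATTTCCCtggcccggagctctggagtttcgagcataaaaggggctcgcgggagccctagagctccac
The window of Cxcl12 held 5 GC boxes, which began 187, 86, 33, 16 and 11 bases before the start, the last pair side by side with a shared base, and no match to the other motifs. That of Cx3cl1 held 1 GC box, 1 TATA box and 1 E-box. That of Cxcl1 held the NF-kB consensus in 2 overlapping positions, 71 and 70 bases before the start, and 1 E-box. Among 32851 mouse promoters of this length, 7.25% held the NF-kB consensus, 32.74% the GC box, 12.37% the TATA box and 66.22% the E-box. A match describes the letters of a window and not a site that is bound, and these data hold no measurement of binding.

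Values are deposited intensities, 1 for each probe set and array, and levels are not compared between genes or arms, because each probe set has its own scale and the arms were scaled apart. The median intensity of an array was 253 to 287 in the TSA arm, with 21.0% to 24.2% of values at or below 0, and 50.4 to 57.6 in the Sir2 arm, with none at or below 0. No array stood apart in scale, and no pair of arrays was identical. Probe sets were tested if their mean over an arm reached the 40th percentile of such means (145 for TSA and 31.1 for Sir2), which left 7453 in each arm. Of the 12 chemokine probe sets, 6 were tested in the TSA arm (Cxcl12 with 3, Ccl2, Ccl7 and Cx3cl1 with 1 each). In the Sir2 arm 4 were tested (Cxcl12 with 2, Cxcl1 and Cx3cl1 with 1 each). The 3 probe sets of Cxcl12 are called bright, middle and dim by their mean intensity. The others are given with their values and with the adjusted p of a fit without that filter. A log2 change is a difference of log2(intensity + 137.7) for the TSA arm or log2(intensity + 8.82) for the Sir2 arm, with its standard error, so changes of dim genes are understated. No change between 2 groups is given where every array of a group is listed at 0 or less. Such a group is left with no spread, and the spread of a probe set is shared over the groups of its arm. Standard errors and p can therefore be too small in every comparison of that probe set. Means over the times and tests of variation with time include such groups. A gene passed where its adjusted p in limma, by the Benjamini-Hochberg method over all probe sets tested, was under 0.05. In RNA of whole cultures, fewer cells that express a gene and less RNA per cell cannot be told apart.

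TSA set the chemokines apart from one another. By 2 of its 3 probe sets Cxcl12 was lower with TSA at every time, though the dim one passed the filter only through control cells. Cx3cl1 was higher at 0, 12 and 24 h, with the call at 12 h lost in 2 of 4 fits that left out an array. Ccl2 was higher in growth medium and lower at 12 h, with the call at 12 h lost in each of 4 such fits. The number of tested chemokine probe sets that passed between TSA and control cells was 5 of 6 at 0 h (2 higher, 3 lower), beside 17.9% of all probe sets tested (7.9% higher, 10% lower). At 4 h 3 passed, all lower, beside 11.4% of all probe sets (5.61% higher, 5.74% lower). At 12 h all 6 passed (1 higher, 5 lower), beside 4.08% (2.56% higher, 1.52% lower). At 24 h 3 passed (1 higher, 2 lower), beside 5.94% (2.67% higher, 3.27% lower). At 48 h 2 passed, both lower, beside 19.6% (10.5% higher, 9.1% lower). In the mean of the times 4 passed, beside 22%, and the difference varied with time for 4, beside 22.2%. Each of these counts includes the dim probe set of Cxcl12, lower with TSA at each time and in the mean. It passed the filter only through control cells, so its part in the counts is weak support. Because 3 of the 6 probe sets are of Cxcl12, those that passed came from 3 genes at 0 h, 1 at 4 h, 4 at 12 h, 2 at 24 h and 1 at 48 h. At 4 and 48 h that gene was Cxcl12. In the mean of the times they came from 2 genes. The 6 chemokine probe sets below the filter are not in these counts. With the 4 arrays of a time fitted on their own, where little is left to estimate the spread, 4 passed at 0 h, 1 at 4 h and 0 at 12, 24 and 48 h in limma, with 5, 4, 6, 4 and 2 by unadjusted p under 0.05. By those fits 1138, 81, 0, 9 and 20 of the 7453 probe sets passed at the 5 times.

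Cxcl12, the ligand of Cxcr4, stood at 189 and 233 with TSA, against 730 and 863 in control cells, at 0 h by its middle probe set. At 4 h it had 226 and 206 with TSA, against 566 and 606 in control cells. At 12 h the values were 269 and 162 with TSA, against 634 and 566 in control cells. Each TSA array lay below each control array at these times. At 24 h TSA cells had 344 and 365, against 925 and 1027 in control cells, and at 48 h TSA cells had 170 and 192, against 693 and 662 in control cells. Over the whole course the highest TSA array (365) lay below the lowest control array (566). The log2 change was -1.42 at 0 h (adjusted p = 2.66e-05), -1.03 at 4 h (5.34e-04), -1.08 at 12 h (8.72e-04), -1.18 at 24 h (3.12e-04) and -1.36 at 48 h (4.50e-05), with a standard error of 0.14. The mean of the 5 differences was -1.21 ± 0.06 (adjusted p = 6.72e-08), and the test of whether the difference changed with time gave adjusted p = 0.445. These calls were kept without any 1 array. In fits of single times the adjusted p was 0.0162 at 0 h and 0.0577 to 0.153 at the later times.

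The dim probe set of Cxcl12 has an f in its name, Affymetrix's mark for probes that can match related sequences. Its mean over the arm, 167, passed the filter of 145 only through control cells, because every TSA array lay below 145. Its calls are therefore weak support for a lower level with TSA. Both TSA arrays were negative at 0, 4, 12 and 48 h, and they had 137 and 49.5 at 24 h. Control cells had 571 and 586 at 0 h, 225 and 217 at 4 h, 326 and 249 at 12 h, 436 and 358 at 24 h, and 277 and 190 at 48 h. The lowest control array thus exceeded the highest TSA array. At 24 h, where a change can be given, it was -1.23 ± 0.17 (adjusted p = 7.69e-04), and adjusted p was 2.44e-06, 2.13e-04, 2.25e-04 and 9.66e-05 at 0, 4, 12 and 48 h. Its difference varied with time (adjusted p = 0.0210, but 0.0713 to 0.0789 when an array of 0 h was left out and 0.106 with trend and robust variance estimation). Both TSA arrays were set to 0 at 0, 4, 12 and 48 h, so the difference at these times follows the control values alone. This test therefore cannot tell a varying effect of TSA from the course of control cells.

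The bright probe set of Cxcl12 differed most between replicate arrays. At 0 h TSA cells had 1038 and 550, against 1937 and 1676 in control cells. At 4 h they had 401 and 675, against 1258 and 1333, and at 12 h 388 and 709, against 1799 and 2378 in control cells. At 24 h TSA cells had 627 and 877, against 1294 and 1464, and at 48 h 593 and 486, against 837 and 654 in control cells. TSA arrays lay below control arrays at each time, and the gap was narrowest at 48 h. The log2 change (standard error 0.29) was -1.11 at 0 h (adjusted p = 0.0188), -1.12 at 4 h (0.0273), -1.73 at 12 h (0.00450), -0.78 at 24 h (0.160) and -0.38 at 48 h (0.404). The mean was -1.02 ± 0.13 (adjusted p = 1.19e-04), and a change with time was not detected (adjusted p = 0.170). The calls at single times depended on single arrays: at 0 h adjusted p was 0.189 without the second TSA array, and 0.116 and 0.0614 without the first or the second control array. At 4 h it was 0.206 without TSA replicate 1, 0.113 and 0.127 without either control array, and at 12 h 0.0630 without TSA replicate 1 and 0.0586 without control replicate 2. The call of the mean was kept without any 1 array. All 3 probe sets agree in direction at every time, and they disagree on how far control cells lose Cxcl12 by 48 h, as given with the time course.

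**Figure D1:**
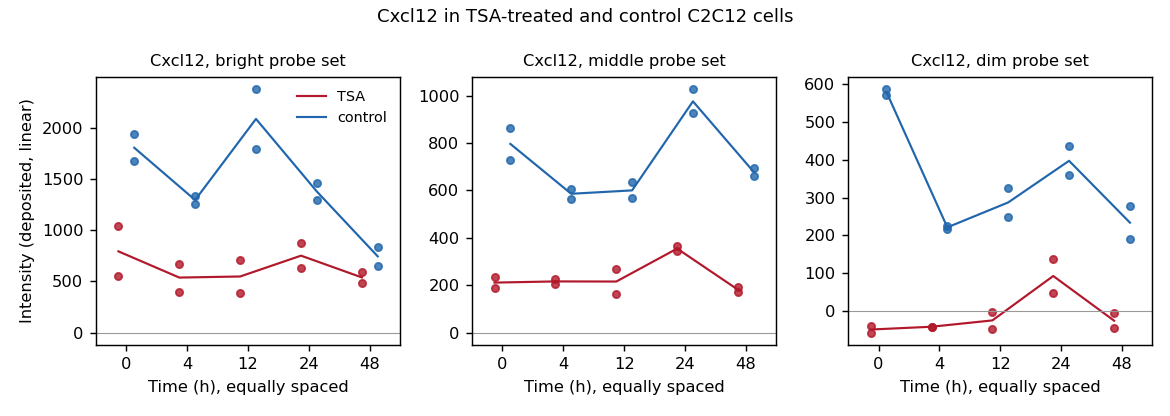
Intensity of the 3 probe sets of Cxcl12 on each array of the TSA arm against time in hours, with times equally spaced, TSA in red and control in blue; points are arrays, lines join group means and the grey line is 0. By the middle probe set each TSA array (162 to 365) lies below each control array (566 to 1027).

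Cx3cl1, the membrane-anchored chemokine fractalkine, was higher in TSA cells of growth medium. They had 998 and 1117, against 297 and 210 in control cells, a log2 change of 1.62 ± 0.16 (adjusted p = 2.57e-05). At 4 h the order was the other way round, with 696 and 898 in TSA cells, against 916 and 1203 in control cells, and did not pass (-0.36 ± 0.16, adjusted p = 0.204). At 12 h TSA cells had 1363 and 1713, against 737 and 871 in control cells, log2 change 0.83 ± 0.16 (adjusted p = 0.0117). The 12 h values with TSA are the highest of the 10 groups. At 24 h TSA cells kept 298 and 280 while control cells were listed below 0 (-60.9 and -77.4, adjusted p = 7.82e-05), and at 48 h all 4 arrays were below 0. The difference varied with time (adjusted p = 1.13e-04), and its mean was 0.74 ± 0.07 (adjusted p = 1.35e-05). Both results take in 24 and 48 h, where groups below 0 were set to 0, so they depend in part on that floor. Over the alternative settings the mean ranged from 0.56 to 0.94. The calls at 0 h, at 24 h, of the mean and of the variation with time were kept without any 1 array. That at 12 h ended without the second TSA array (adjusted p = 0.139) or the first control array (0.0786), and in fits of single times adjusted p was 0.165 at 12 h and 0.0808 at 24 h. The other probe set, of a kind for which Affymetrix relaxed its probe rules, was at or below 0 on 19 of 20 arrays of the arm and gives no measure.

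Ccl2, the main attractant of monocytes, was higher with TSA in growth medium and lower with TSA at 12 h. At 0 h TSA cells had 1204 and 1329, against 378 and 550 in control cells, log2 change 1.24 ± 0.25 (adjusted p = 0.00353), a call kept without any 1 array. At 4 h they had 1127 and 1268, against 731 and 544 in control cells (0.79 ± 0.25, adjusted p = 0.0578). The difference at 4 h passed with quantile normalization (adjusted p = 0.0403), median centring (0.0409) or a doubled pseudocount (0.0174). At 12 h the order was reversed, with 399 and 303 in TSA cells, against 810 and 840 in control cells (-0.98 ± 0.25, adjusted p = 0.0430). That call was lost without any of the 4 arrays (adjusted p 0.112 to 0.276) and with quantile normalization (0.0558), a smaller pseudocount (0.135), no filter (0.0709), trend and robust variance estimation (0.0538) and only the groups compared (0.118), although the groups did not overlap. At 24 h TSA cells had 7.83 and 117, against 121 and 96.0 in control cells, and at 48 h -28.4 and 56.7, against -61.1 and -59.1 in control cells, and neither passed (adjusted p = 0.522 and 0.525). The effect of TSA on Ccl2 varied with time (adjusted p = 0.00318, kept without any 1 array), and its mean over the times did not pass (0.19 ± 0.11, adjusted p = 0.263).

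Ccl7, a relative of Ccl2 that lies beside it on chromosome 11 and shares the receptor Ccr2, was dimmer and followed another course. TSA and control cells had 327 and 242, against 221 and 215, at 0 h, and 118 and 146, against 212 and 173, at 4 h, and neither difference passed (0.24 ± 0.20, adjusted p = 0.498, and -0.29 ± 0.20, adjusted p = 0.431). At 12 h TSA cells had -10.7 and 45.8, against 150 and 202 in control cells, log2 change -0.98 ± 0.20 (adjusted p = 0.0162). Both TSA arrays of 12 h are near 0 and lie below every other group. At 24 h TSA cells had 86.0 and 132, against 52.9 and 88.1 in control cells, and at 48 h 130 and 263, against 270 and 310 in control cells (adjusted p = 0.618 and 0.215). The call at 12 h ended without the first TSA array (adjusted p = 0.171) or the second control array (0.147). The effect varied with time by adjusted p = 0.0308, which was lost in 7 of 20 fits that left out an array (up to 0.0964) and with trend and robust variance estimation (0.0857). The mean over the times was -0.23 ± 0.09 (adjusted p = 0.0895).

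**Figure D2:**
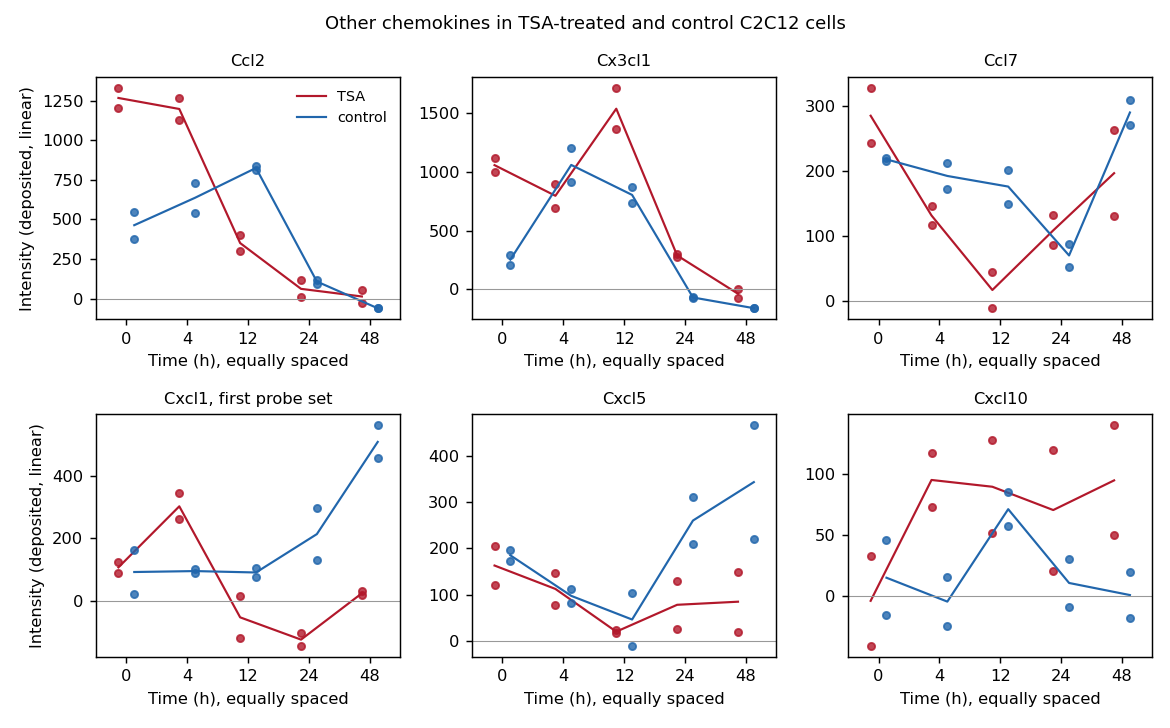
Intensity of Ccl2, Cx3cl1, Ccl7, Cxcl1, Cxcl5 and Cxcl10 on each array of the TSA arm against time in hours, with times equally spaced, TSA in red and control in blue; points are arrays, lines join group means and the grey line is 0. Ccl2 and Cx3cl1 start higher with TSA (1204 to 1329 and 998 to 1117) and fall away by 48 h in both treatments, while Cxcl1 reaches 457 and 562 in control cells at 48 h and 31.4 and 17.6 with TSA.

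The neutrophil attractants Cxcl1 and Cxcl5 were below the filter of the TSA arm. For the first of 2 probe sets of Cxcl1, TSA and control cells had 91.0 and 124, against 21.1 and 164, at 0 h, and 261 and 345, against 90.4 and 101, at 4 h. At 12 h TSA cells had 14.6 and -120, against 107 and 75.6 in control cells, and at 24 h -144 and -104, against 298 and 130 in control cells. At 48 h TSA cells had 31.4 and 17.6, against 562 and 457 in control cells. By this probe set control cells gained Cxcl1 at the end of the course and TSA cells did not. In the fit without the filter the change at 48 h was -1.99 ± 0.27 (adjusted p = 7.07e-04), the mean of the times was -0.58 ± 0.12 (adjusted p = 0.00845), and the effect varied with time (adjusted p = 0.00242). These calls were kept without any 1 array, while that at 24 h (adjusted p = 0.0230) was lost in 3 of 4 fits that left out an array, up to 0.143. At 4 h the difference of 0.91 ± 0.27 did not pass (adjusted p = 0.0791). The second probe set of Cxcl1 was at or below 0 on 11 of 20 arrays and passed at no time, so the result rests on 1 probe set. In TSA cells its values went from -107 and -53.9 at 0 h to 86.6 and 211 at 48 h. These overlapped the 128 and 350 of control cells at 48 h. In that fit 10.9%, 7.2%, 2.71%, 3.75% and 13% of all probe sets passed between TSA and control at 0, 4, 12, 24 and 48 h, 13.5% in the mean and 14.1% in the test of variation with time.

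Cxcl5, the other ligand of Cxcr2, had 121 and 206 with TSA, against 197 and 173 in control cells, at 0 h, and 78.4 and 146, against 81.3 and 113, at 4 h. At 12 h TSA cells had 23.1 and 16.1, against -11.0 and 103 in control cells. At 24 h they had 25.5 and 130, against 210 and 311, and at 48 h 19.6 and 149, against 467 and 221 in control cells. TSA and control arrays overlapped until 12 h and stood apart at 24 and 48 h. None of these differences passed, the smallest adjusted p being 0.0758 at 48 h (-1.13 ± 0.37), and the mean of the times was -0.46 ± 0.17 (adjusted p = 0.109).

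Cxcl10, the interferon-induced ligand of Cxcr3, was near 0 throughout, with 32.9 and -40.9 with TSA, against 45.9 and -16.0 in control cells, at 0 h. From 4 h on TSA arrays ranged from 20.8 to 140 and control arrays from -24.6 to 85.0. The mean difference was 0.35 ± 0.12 and did not pass (adjusted p = 0.0875). Ccl5, the T cell attractant, was listed below 0 on all 20 arrays of the arm, and no change is given.

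**Figure D3:**
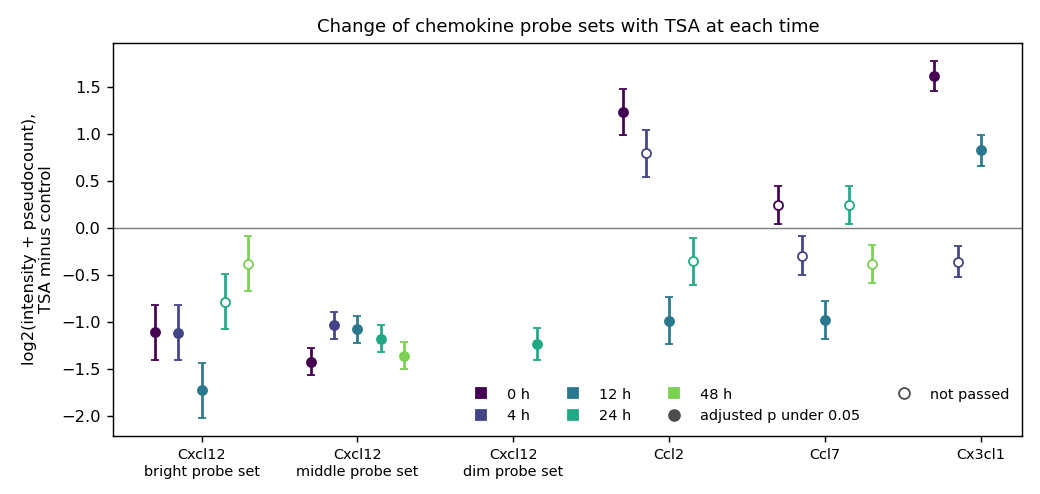
Change of log2(intensity + 137.7) between TSA and control cells (TSA minus control) for the 6 chemokine probe sets tested, with bars of 1 standard error, time by colour, filled points where adjusted p was under 0.05 and open points where it was not; points with a group wholly at 0 or less are left out. The points of Cxcl12 lie below 0 and the highest is that of Cx3cl1 at 0 h, at 1.62.

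Differentiation changed the chemokines of control cells as well. In control cells Ccl2 had 464 ± 121, 637 ± 132, 825 ± 21.9 and 109 ± 17.9 at 0, 4, 12 and 24 h, and was listed below 0 on both arrays of 48 h (SD, n = 2 each). Cx3cl1 had 253 ± 61.4, 1060 ± 203 and 804 ± 94.8 at 0, 4 and 12 h, and was below 0 at 24 and 48 h. Ccl2 was lower on both arrays of 24 h than on any earlier array, and Cx3cl1 was at its highest at 4 and 12 h. Cx3cl1 at 4 h against 0 h had a log2 change of 1.61 ± 0.16 (adjusted p = 7.08e-04) and at 12 h of 1.27 ± 0.16 (0.00144), and adjusted p was 8.50e-05 at 24 h and 1.49e-05 at 48 h. Ccl2 did not differ from 0 h by the threshold at 4 and 12 h (0.37 ± 0.25, adjusted p = 0.521, and 0.69 ± 0.25, 0.13). It was lower at 24 h (-1.28 ± 0.25, adjusted p = 0.00442, but 0.0557 without control replicate 2 of 0 h) and at 48 h (2.76e-05).

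Ccl7 dipped and returned in control cells, with 218 ± 3.8 at 0 h, 70.5 ± 24.9 at 24 h and 290 ± 28.1 at 48 h. Its change at 24 h of -0.78 ± 0.20 passed (adjusted p = 0.0243) and was lost without any 1 of the 4 arrays (0.0577 to 0.132), and that at 48 h did not pass (0.26 ± 0.20, 0.345). The probe sets of Cxcl12 gave different answers for 48 h against 0 h in control cells: the bright one changed by -1.14 ± 0.29 (adjusted p = 0.00864, but 0.0604 without control replicate 1 of 0 h and 0.0583 without control replicate 2 of 48 h), the dim one by -0.96 ± 0.17 (7.60e-04), and the middle one by -0.19 ± 0.14 (0.328). By the dim probe set it was also lower at 4 h (-1.0 ± 0.17, adjusted p = 0.0103, lost without any 1 array) and at 12 h (-0.76 ± 0.17, 0.0235, lost in 3 of 4 such fits). Cxcl1 rose at 48 h by its first probe set, with 509 ± 74.4, against 92.6 ± 101 at 0 h, log2 change 1.56 ± 0.27 in the fit without the filter (adjusted p = 0.00173, beside 22.3% of all probe sets). Of the 6 chemokine probe sets tested, 2 passed at 4 h, 2 at 12 h, 3 at 24 h and 4 at 48 h against 0 h. They came from 2, 2, 3 and 3 genes, beside 2.05%, 5.23%, 12.9% and 35.3% of all probe sets that passed. With only the groups compared in the fit, 0, 0, 1 and 4 passed in limma, with 4, 3, 4 and 4 by unadjusted p under 0.05. By those fits 0, 2, 256 and 1534 of the 7453 probe sets passed.

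In TSA cells, which began with more Ccl2 and Cx3cl1 than control cells, Ccl2 had 1266 ± 87.7, 1197 ± 99.7, 351 ± 67.8, 62.4 ± 77.1 and 14.2 ± 60.1 at 0, 4, 12, 24 and 48 h. Against 0 h it was lower at 12 h (-1.53 ± 0.25, adjusted p = 0.00107), at 24 h (-2.87 ± 0.25, 8.53e-06) and at 48 h (-3.10 ± 0.25, 1.34e-06). Cx3cl1 had 1058 ± 84.2, 797 ± 142, 1538 ± 248 and 289 ± 13.2 at 0, 4, 12 and 24 h and was negative at 48 h. It was lower than at 0 h at 24 h (-1.49 ± 0.16, adjusted p = 5.15e-05) and at 48 h (2.40e-08). Ccl7 was lower at 12 h (-1.40 ± 0.20, adjusted p = 4.92e-04) and at 24 h (-0.78 ± 0.20, 0.0203, but 0.154 without TSA replicate 1 of 0 h and 0.125 without TSA replicate 2 of 24 h). Cxcl12 was higher at 24 h by the middle probe set (0.50 ± 0.14, adjusted p = 0.0311) and by the dim probe set (0.0112), which was lost in 4 and 3 of 4 fits that left out an array (up to 0.198 and 0.105). Of the 6 tested, 0 passed at 4 h against 0 h in limma (2 by unadjusted p under 0.05), 2 at 12 h, 5 at 24 h and 2 at 48 h, beside 6%, 16.7%, 16.6% and 26.4% of all probe sets. The 5 at 24 h came from 4 genes. The TSA and control courses and the differences between them use the same arrays, so they are not separate evidence.

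In the Sir2 arm the label was checked first. Sirt1 had 42.1 ± 5.90 in Sir2 cells, against 14.7 ± 5.40 in vector cells, at 12 h (log2 change 1.14 ± 0.27, adjusted p = 0.0316, lost in 5 of 6 fits that left out an array). At 36 h it had 61.8 ± 23.2 in Sir2 cells, against 32.0 ± 10.8 in vector cells (0.77 ± 0.27, adjusted p = 0.106), and the mean was 0.95 ± 0.19 (0.00641). Whether the construct holds the sequence that this probe set reads is not stated in the labels.

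The 4 chemokine probe sets tested were all higher with Sir2 in the mean of the 2 times, and 1 of them passed at each single time. For Cx3cl1 the mean averages a difference at 12 h with none detected at 36 h. Without the filter the means of Cx3cl1 and of Cxcl12 by the bright probe set no longer passed. Cxcl12 by the middle probe set had 94.5, 84.2 and 122 in Sir2 cells, against 37.4, 78.8 and 44.9 in vector cells, at 12 h, and 25.0, 50.2 and 33.6 in Sir2 cells, against 19.4, 19.2 and 20.5 in vector cells, at 36 h. The groups did not overlap at either time. The difference did not pass at 12 h (0.84 ± 0.24, adjusted p = 0.0671) or at 36 h (0.62 ± 0.24, 0.143), and its mean did (0.73 ± 0.17, adjusted p = 0.0153). By the bright probe set Sir2 cells had 138, 179 and 123, against 119, 102 and 128 in vector cells, at 12 h, which overlapped (0.30 ± 0.17, adjusted p = 0.393). At 36 h they had 69.1, 63.5 and 66.7, against 37.6, 36.1 and 55.9, which did not (0.55 ± 0.17, 0.0612). The mean of 0.42 ± 0.12 (adjusted p = 0.0345) was lost in 9 of 12 fits that left out an array, up to 0.0798.

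Cx3cl1 was higher with Sir2 at 12 h, with 187, 164 and 173 in Sir2 cells, against 98.3, 112 and 106 in vector cells (0.68 ± 0.12, adjusted p = 0.00540). At 36 h Sir2 cells had 86.9, 90.8 and 77.4, against 86.6, 98.4 and 74.6 in vector cells, which overlapped (-0.02 ± 0.12, adjusted p = 0.949). The test of the difference between these effects, -0.70 ± 0.17, did not pass (adjusted p = 0.0604). The mean was 0.33 ± 0.08 (adjusted p = 0.0218) and was lost in 4 of 12 fits that left out an array, up to 0.0563. The call at 12 h was kept without any 1 array. Cxcl1 by its first probe set had 84.8, 41.0 and 49.9 in Sir2 cells, against 38.0, 30.4 and 40.1 in vector cells, at 12 h (0.54 ± 0.22, adjusted p = 0.212). At 36 h it had 66.8, 65.2 and 47.8 in Sir2 cells, against 31.2, 21.1 and 30.9 in vector cells (0.91 ± 0.22, adjusted p = 0.0218). Sir2 arrays were higher than vector arrays at both times. The call at 36 h was lost without Sir2 replicate 1 (adjusted p = 0.0808), Sir2 replicate 2 (0.0724) or vector replicate 2 (0.0821), and that of the mean, 0.72 ± 0.15 (0.00912), was kept without any 1 array.

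Ccl2 and Ccl7, below the filter of this arm, were also higher with Sir2 in the mean. Ccl2 had 49.1, 44.7 and 64.3 in Sir2 cells, against 19.9, 20.2 and 19.8 in vector cells, at 12 h, and 1.97, 23.2 and 21.6, against 2.71, 2.10 and 2.36, at 36 h. The groups stood apart at 12 h and overlapped at 36 h through 1 Sir2 array. In the fit without the filter its mean difference was 1.03 ± 0.23 (adjusted p = 0.0271), lost in 10 of 12 fits that left out an array, up to 0.0620. Ccl7 had 16.1, 16.1 and 26.3 in Sir2 cells, against 9.42, 8.98 and 10.2 in vector cells, at 12 h, and 16.7, 20.4 and 25.2, against 14.5, 6.34 and 8.17, at 36 h. Sir2 arrays of Ccl7 lay above vector arrays at both times, and its mean difference was 0.65 ± 0.13 (adjusted p = 0.0150, kept without any 1 array). The second probe set of Cxcl1 had a mean difference of 0.59 ± 0.15 (adjusted p = 0.0485, lost in 10 of 12 such fits). Cxcl5 ranged from 9.15 to 37.8, Cxcl10 from 1.09 to 11.5 and Ccl5 from 2.05 to 6.55 over the 12 arrays, and none of their differences passed. The dim probe set of Cxcl12 had 33.9, 27.6 and 28.6 in Sir2 cells, against 22.7, 15.1 and 34.3 in vector cells, at 12 h, and 4.53, 20 and 9.07, against 3.85, 5.73 and 4.87, at 36 h. The groups overlapped at both times, and its mean difference of 0.38 ± 0.19 did not pass (adjusted p = 0.330). The second probe set of Cx3cl1 ranged from 6.36 to 33.7, and its mean difference of 0.21 ± 0.23 did not pass either (adjusted p = 0.720).

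Of the 4 chemokine probe sets tested in this arm, 1 passed at 12 h, 1 at 36 h and 4 in the mean, all higher, beside 5.55%, 9.26% and 12.6% of all probe sets (2.78%, 6.04% and 7.49% higher). The 4 in the mean came from 3 genes. In the fit without the filter 1.96%, 4.24% and 5.63% of all probe sets passed. In that fit Cxcl12 by the bright probe set (adjusted p = 0.0735) and Cx3cl1 (0.0501) no longer passed in the mean. The effects at the 2 times differed for 0 of the 4 in limma (1 by unadjusted p under 0.05), beside 1.76% of all probe sets.

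**Figure D4:**
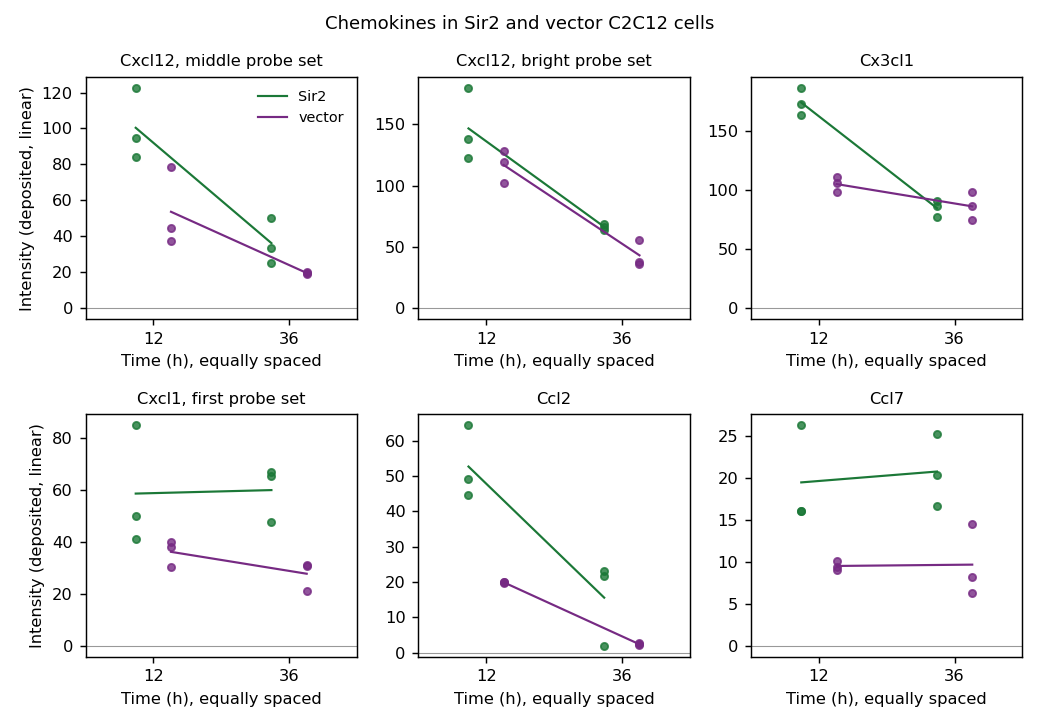
Intensity of Cxcl12 (2 probe sets), Cx3cl1, Cxcl1, Ccl2 and Ccl7 on each array of the Sir2 arm at 12 and 36 h, equally spaced, Sir2 in green and vector in purple; points are arrays, lines join group means and the grey line is 0. Cx3cl1 in Sir2 cells at 12 h (164 to 187) lies above the other 3 groups, and the 2 probe sets of Cxcl12 are lower at 36 h than at 12 h in both kinds of cells.

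Cxcl12 fell between 12 and 36 h in both kinds of cells. By the bright probe set vector cells at 36 h had 43.2 ± 11, against 117 ± 13.3 at 12 h (SD, n = 3 each), log2 change -1.28 ± 0.17 (adjusted p = 1.01e-04), and Sir2 cells had 66.4 ± 2.78, against 146 ± 29.4 (-1.03 ± 0.17, 5.83e-04). By the middle probe set the changes were -1.08 ± 0.24 in vector cells (adjusted p = 0.00513) and -1.30 ± 0.24 in Sir2 cells (0.00164). In the fit without the filter the dim probe set changed by -1.23 ± 0.27 in vector cells (adjusted p = 0.00807, kept without any 1 array) and by -1.03 ± 0.27 in Sir2 cells (0.0226, lost in 5 of 6 fits that left out an array, up to 0.0870). Cx3cl1 fell in Sir2 cells, with 85.0 ± 6.87 at 36 h, against 174 ± 11.6 at 12 h (-0.97 ± 0.12, adjusted p = 6.46e-05), and its change in vector cells did not pass (-0.27 ± 0.12, 0.105). Cxcl1 did not pass in either (-0.31 ± 0.22, adjusted p = 0.318, in vector cells and 0.07 ± 0.22, 0.846, in Sir2 cells). Ccl2, in the fit without the filter, had 2.39 ± 0.306 at 36 h, against 19.9 ± 0.207 at 12 h, in vector cells (-1.36 ± 0.33, adjusted p = 0.0155, beside 17.7% of all probe sets), and 15.6 ± 11.8, against 52.7 ± 10.3, in Sir2 cells (-1.48 ± 0.33, 0.0107, beside 14.8%). The calls of Cx3cl1 and Ccl2 between these times, and those of Cxcl12 by its bright and middle probe sets, were kept without any 1 array. Of the 4 tested, 2 passed in vector cells (1 gene) and 3 in Sir2 cells (2 genes), beside 32.1% and 28.5% of all probe sets.

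The receptors were read from a list of 23 genes, of which 19 were on the array and 10 were tested in the TSA arm. In the mean of the times 2 of the 10 were lower with TSA and 8 did not pass, a share near the 22% of all probe sets that passed in this comparison, with a median log2 change of -0.11, beside -0.03 over all probe sets tested. The 2 were the receptors of Cxcl12. Ackr3, the scavenger, changed by -0.68 ± 0.12 (adjusted p = 0.00110), and Cxcr4, the signalling receptor, by -0.39 ± 0.08 (0.00245), both kept without any 1 array. Ackr3 averaged 87.2 on TSA arrays and 223 on control arrays, so it passed the filter of this arm only through control cells. Its call, and its part in the count of 2, is therefore weak support for a lower level with TSA. The effect on Cxcr4 varied with time (adjusted p = 5.84e-05). At 0 h it had 196 ± 11.5 in TSA cells, against 1062 ± 182 in control cells (-1.84 ± 0.17, adjusted p = 1.28e-05), and at 4 h 133 ± 37.1, against 324 ± 36 (-0.78 ± 0.17, 0.0102, but 0.0945 without TSA replicate 1 and 0.0837 without control replicate 2). At 48 h it was higher with TSA, at 415 ± 36.8, against 156 ± 8.11 in control cells (0.91 ± 0.17, adjusted p = 0.00262, and 0.102 with only the groups compared). Control cells lost Cxcr4 between 0 and 48 h (-2.02 ± 0.17, adjusted p = 1.66e-06) and TSA cells gained it (0.73 ± 0.17, 0.00689). Cxcr2 and Ccr2, the receptors of the neutrophil and monocyte attractants, were below the filter. Of the 5 receptors tested in the Sir2 arm, 0 passed between Sir2 and vector cells at 12 h, 36 h or in the mean in limma, with 0, 2 and 1 by unadjusted p under 0.05. In vector cells Cxcr4 (-0.87 ± 0.20, adjusted p = 0.00518) and Ackr3 (-0.74 ± 0.16, 0.00373) were lower at 36 h than at 12 h.

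Other genes around the chemokines were followed by lists. Of 28 other chemokines 17 were on the array and 5 were tested, and 0 passed in the mean of TSA against control in limma (0 by unadjusted p under 0.05). Ccl6 rose in control cells at 48 h (1.47 ± 0.51, adjusted p = 0.0386), which was lost in 3 of 4 fits that left out an array (up to 0.272). Of 25 genes of the NF-kB pathway 16 were tested, of which 4 fell with TSA in the mean and 12 did not pass (median -0.06), near the share of all probe sets that passed (22%). They were Vcam1, an adhesion molecule of leukocytes (-0.71 ± 0.06, adjusted p = 2.51e-06), the interleukin 1 receptor Il1r1 (-0.75 ± 0.08, 3.24e-05), Tnfaip2 (-0.45 ± 0.11, 0.0104) and the adaptor Myd88 (-0.50 ± 0.16, 0.0439, lost in 12 of 20 fits that left out an array, up to 0.0950). The effect on Vcam1 varied with time (adjusted p = 4.82e-04). With Sir2 at 36 h 4 genes of this list rose and 12 did not pass (median 0.06, beside -0.02 over all probe sets tested, of which 6.04% rose). Vcam1 had 389 ± 44.5 in Sir2 cells, against 130 ± 3.48 in vector cells (1.51 ± 0.11, adjusted p = 2.49e-05), and the tumour necrosis factor receptor Tnfrsf1b had 119 ± 14.4, against 56.5 ± 5.35 (0.96 ± 0.13, 7.33e-04). In control cells at 48 h the inhibitor Nfkbia fell (-0.70 ± 0.23, adjusted p = 0.0285, lost in 3 of 4 fits that left out an array, up to 0.227).

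Of 27 genes of the interferon response 10 were tested, of which 1 rose with TSA in the mean and 9 did not pass, beside 22% of all probe sets that passed. It was the receptor subunit Ifnar1 (0.42 ± 0.13, adjusted p = 0.0331, lost in 11 of 20 fits that left out an array, up to 0.0745). In control cells at 48 h Ifitm3 (0.82 ± 0.17, adjusted p = 0.00205) and the GTPase Igtp (0.88 ± 0.22, 0.00735, lost in 1 of 4 fits, at 0.0718) rose and 8 did not pass, beside 35.3% of all probe sets that passed. With Sir2 at 36 h 3 rose and 7 did not pass, beside 6.04% of all probe sets that rose, led by Ifitm3 (1.32 ± 0.13, adjusted p = 8.64e-05) and Ifnar1 (0.48 ± 0.10, 0.0138, lost in 2 of 6 fits, up to 0.0604). Of 16 inflammatory cytokines 2 were tested, and Csf1, a growth factor of macrophages, rose slightly with TSA in the mean (0.19 ± 0.05, adjusted p = 0.0190) and fell in control cells at 48 h (-0.87 ± 0.12, 8.75e-05). With Sir2 at 36 h Csf1 rose by 0.49 ± 0.14 (adjusted p = 0.0459, lost in 4 of 6 fits that left out an array, up to 0.163). Of 11 proteases and inhibitors that act on chemokines 7 were tested in the TSA arm, and 1 passed in the mean, beside 22% of all probe sets. This was Timp1, an inhibitor of metalloproteases, with 0.91 ± 0.07 (adjusted p = 2.85e-06), which fell in control cells at 48 h (-0.91 ± 0.16, 8.67e-04) and rose with Sir2 at 36 h (0.97 ± 0.13, 8.59e-04). Adam10, which releases Cx3cl1, rose in control cells at 48 h (0.42 ± 0.12, adjusted p = 0.0137, lost in 2 of 4 fits that left out an array, up to 0.119). In the same comparison Timp3 fell (-0.80 ± 0.24, adjusted p = 0.0196) and the peptidase Dpp4 rose (0.65 ± 0.22, 0.0338), each lost in 2 of 4 such fits (up to 0.181 and 0.224).

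The identity of the cells was read from marker lists. Of 10 myoblast markers 9 were on the array and tested, and they summed to 20945 to 65572 on TSA arrays, 13454 to 61269 on control arrays, 5761 to 10910 on Sir2 arrays and 8234 to 11737 on vector arrays. With TSA 6 of them rose in the mean and 3 did not pass, beside 22% of all probe sets that passed. With Sir2 at 12 h 6 fell and 3 did not pass, beside 5.55% of all probe sets that passed. With Sir2 at 36 h 2 rose and 7 did not pass, beside 9.26%. These were Myf5 (0.90 ± 0.17, adjusted p = 0.00584) and Cdh15 (0.38 ± 0.09, 0.0234, lost in 5 of 6 fits that left out an array, up to 0.0927). Of 14 leukocyte markers on the array 4 were tested in the TSA arm, and the sums were 1624 to 2092 on TSA arrays and 1747 to 2853 on control arrays. The defining marker Ptprc was at or below 0 on 15 of 20 arrays, Cd3e on 20 and Itgam on 19. Other markers of the list were above 0, with a mean over the arm of 979 for Cd14 and 232 for Csf1r, both above 0 on every array, and 315 for Laptm5, which was at or below 0 on 1 array. The probe set of Csf1r is of the kind with relaxed probe rules. That of Laptm5 carries the f of probes that can match related sequences. Csf1r rose in control cells at 48 h (0.88 ± 0.22, adjusted p = 0.00814, lost in 2 of 4 fits that left out an array, up to 0.0654). Fcgr3, an antibody receptor of macrophages, fell with TSA in the mean (-1.07 ± 0.17, adjusted p = 5.63e-04), and the other 3 did not pass. Fcgr3 averaged 90.4 on TSA arrays and 334 on control arrays, so it passed the filter of 145 only through control cells. Its call is therefore weak support for a lower level with TSA. In the Sir2 arm the leukocyte sums were 327 to 448 on Sir2 arrays and 354 to 554 on vector arrays. Fibroblast markers (6 on the array, 5 tested in the TSA arm) summed to 953 to 2279 on TSA arrays and 895 to 3959 on control arrays, and in the Sir2 arm to 640 to 1589 on Sir2 arrays and 493 to 1039 on vector arrays. Of these Cd34 rose with TSA in the mean (0.98 ± 0.15, adjusted p = 4.08e-04), and the other 4 did not pass, with a median of -0.11 over the 5. Cd34 averaged 453 on TSA arrays and 109 on control arrays, so it passed the filter of 145 only through TSA cells. Its call is therefore weak support for a higher level with TSA. In control cells at 48 h Dcn rose to 2127 ± 172, from 193 ± 12.5 at 0 h (2.77 ± 0.20, adjusted p = 4.63e-07). The other 4 did not pass, beside 35.3% of all probe sets that passed. Of the 4 tested in the Sir2 arm Dcn (1.43 ± 0.14, 1.00e-04) and Cd34 (0.67 ± 0.16, 0.0200, lost in 4 of 6 fits that left out an array) rose with Sir2 at 36 h and 2 did not pass. Endothelial markers (7 on the array, of which 1 was tested and did not pass with TSA in the mean) summed to 832 to 1619 on TSA arrays and 631 to 1897 on control arrays, and to 51.2 to 111 on Sir2 arrays and 56.5 to 145 on vector arrays. Their part in the chemokine results was not tested.

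The genes whose group means were most like those of each chemokine were found among 3298 probe sets that ranged over at least 1 on the log2 scale, by Pearson's r over the 10 groups of the TSA arm, as a description, since the groups share arrays and treatments. For Cxcl12 (bright probe set) they were Cyb561 (r = 0.925), Aprt (0.918) and Cenpv (0.915). For Ccl2 they were Tst (0.951), Ilk (0.946) and B3gnt2 (0.942). For Ccl7 they were Gpr162 (0.918), Slc6a8 (0.862) and Stmn4 (0.822). For Cx3cl1 they were Twist1 (0.958), a transcription factor of mesenchymal cells, the actin crosslinker Actn1 (0.954) and the collagen Col8a1 (0.941).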

How the data were processed

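RNA of C2C12 cells was measured on 32 Affymetrix MG-U74Av2 arrays, 20 of the TSA arm, 12 of the Sir2 arm. The deposited values are intensities, 1 for each of 12488 probe sets and array. MAS5 is named for the Sir2 arm, per the submitters' processing notes, and no tool is named there for the TSA arm. The number of arrays limits the precision. After 66 control probe sets were left out, 12422 were used, and 10833 had 1 gene symbol, 396 several and 1193 none in GEO's platform annotation, with 10817 symbols updated through Entrez identifiers. Values below 0 were set to 0. A pseudocount was added (137.689, the 40th percentile of values, for TSA and 8.81923, the 20th, for Sir2), and log2 values were fitted in each arm by limma 3.58.1 (R 4.3.3) as 1 mean for each group with a shared spread (residual degrees of freedom 10 and 8). Tables and figures were made with Python 3.11.15, numpy 2.4.6, pandas 2.3.3 and matplotlib 3.10.9. The fits were tested on simulated data with a normal spread on the log2 scale and no values set to 0. That test therefore does not cover groups in which every array is listed at 0 or less.

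The chemokines and the gene lists were chosen with earlier results of these data known. Each chemokine probe set is named. Of each pathway list, up to 4 genes with the smallest p in the mean of TSA against control, up to 4 in control cells at 48 h against 0 h and up to 2 in Sir2 against vector at 36 h are named where they passed, and Cxcr4, Ackr3 and Vcam1 are followed further, chosen after their values were seen. The alternatives were median centring, quantile normalization, no filter, other pseudocounts, trend and robust variance estimation, the replicate number as a block, only the groups compared, and each array left out. Leaving out arrays in the fit without the filter was added after seeing the data.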

Additional observations from a re-analysis of the deposited data

Results flagged for a closer look

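For 5 probe sets the difference between TSA and control cells itself differed between the 5 times in the test of that variation over all times. These were Cx3cl1 (adjusted p = 1.13e-04), Ccl2 (0.00318), Cxcl12 by its dim probe set (0.0210) and Ccl7 (0.0308), and Cxcl1 by its first probe set in the fit without the filter (0.00242). Of all probe sets tested 22.2% varied in this way, and 14.1% in the fit without the filter. For the dim probe set of Cxcl12 both TSA arrays were set to 0 at every time but 24 h. Its test therefore cannot tell a varying effect of TSA from the course of control cells. For Cx3cl1 TSA cells were higher at 0, 12 and 24 h and lower, short of the threshold, at 4 h. For Ccl2 they were higher at 0 h and lower at 12 h, with the call at 12 h lost in each of 4 fits that left out an array.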

How the results depend on the processing

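With only the groups compared in the fit, the count of chemokine probe sets that passed between TSA and control was 1 at 4 h and 0 at 12, 24 and 48 h; in control cells against 0 h it was 0 at 4 h, 0 at 12 h and 1 at 24 h, and in TSA cells at 24 h it was 2. Such a fit has fewer arrays to estimate the spread. Of all 7453 probe sets 81, 0, 9 and 20 passed between TSA and control at 4, 12, 24 and 48 h. In control cells 0, 2 and 256 passed at 4, 12 and 24 h, and in TSA cells 286 at 24 h. With trend and robust variance estimation 2 varied with time, and 1 passed in control cells at 12 h and 2 in TSA cells at 24 h. With quantile normalization or median centring 2 passed between Sir2 and vector at 36 h. Without the filter 4 passed over time in vector cells and 5 in Sir2 cells, out of more probe sets tested. When each array was left out in turn, the count between TSA and control was 3 to 4 at 12 h, that of variation with time 2 to 4, that of control cells 1 at 4 h, 1 to 2 at 12 h and 1 to 2 at 24 h, and that of TSA cells at 24 h 2 to 4. Between Sir2 and vector it was 1 to 2 at 12 h, 0 to 2 at 36 h and 2 to 4 in the mean.

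Changes of sign were met only in differences that did not pass. Cxcl12 by its middle probe set in TSA cells at 4 h became -0.00867 with quantile normalization and -0.0060 with median centring, and Cx3cl1 between Sir2 and vector at 36 h became 0.00319 and 0.0257. With an array left out, Ccl2 between TSA and control at 24 h ranged from -0.757 to 0.0499, Ccl2 in TSA cells at 4 h from -0.150 to 0.00249, Cxcl12 by its bright probe set in control cells at 12 h from -0.00229 to 0.375 and in TSA cells at 24 h from -0.417 to 0.358. Cxcl12 by its middle probe set in TSA cells ranged from -0.0671 to 0.112 at 4 h and from -0.215 to 0.224 at 12 h, Cx3cl1 between Sir2 and vector at 36 h from -0.111 to 0.0706, and Cxcl1 in Sir2 cells over time from -0.122 to 0.333. The cause was not tested.

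Replicate numbers did not pair the samples: the correlation of deviations was -0.0997, -0.0944, 0.172, 0.228 and -0.0984 at the 5 times with TSA, and lay between -0.314 and 0.116 for the Sir2 arm. With the replicate number as a block 5 chemokine probe sets passed between TSA and control at 12 h, 4 in TSA cells at 24 h and 3 in the mean of Sir2 against vector.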
